A study of Mus musculus with 8 samples.

Results

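Gbe1, the gene of the glycogen branching enzyme, was examined together with 8 other genes of glycogen metabolism for sites enriched by chromatin immunoprecipitation with sequencing (ChIP-seq) with an Nrf2 antibody. The 9 genes were Gbe1, Gys1, Gyg, Pygm, Pygb, Phka1, Phkb, Ugp2 and Pgm1, out of 21631 protein-coding genes on the chromosomes that carried peaks. Each was placed with a RefSeq gene table of build mm10. A gene was said to hold a site when the summit of a deposited peak lay inside its span or within 50 kb of either end. Gbe1 was chosen because a strong peak had been seen beside it, so the members were selected on the deposited −log10 p, IDR and position of that peak. Its strength and rank are given as a description and carry no test.

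Satellite cells, which rest on muscle fibres and rebuild them after injury, had been isolated fresh from hindlimb muscle of C57BL/6J mice. Of 8 libraries, 2 were Nrf2 ChIP and 2 input from Keap1-null cells, and 2 were Nrf2 ChIP and 2 input from Nrf2-null cells. Each group has its libraries numbered as bench 1 and bench 2. The labels name the genotypes without alleles, any Cre driver, the deleted parts of the genes or the age of the mice. They also leave unsaid whether the benches stood for separate animals. No wild-type group was analysed here, so the lists do not show which sites Nrf2 holds where Keap1 is present. Each genotype has 1 deposited peak list that joins its 2 ChIP libraries, of 469 peaks from Keap1-null cells and 151 from Nrf2-null cells. A Keap1-null peak that overlapped no Nrf2-null peak by 1 bp or more is called Keap1-null-only, and there were 363 of these.

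Glycogen is the branched glucose polymer that muscle stores as fuel. Glucose is activated to UDP-glucose, glycogenin starts a chain, glycogen synthase lengthens it and the branching enzyme adds the side chains that keep the particle soluble. Phosphorylase, switched on by phosphorylase kinase, shortens the chains again. Nrf2, held low by Keap1, binds DNA with a small Maf partner at antioxidant response elements and is best known for genes of redox defence.

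The Gbe1 peak lay upstream of the gene at chr16:70313268-70313786, and its summit at position 70313498 was 451 bp before the RefSeq transcription start at position 70313949 on the plus strand. The RefSeq promoter table (build GRCm38.p6, the assembly behind mm10) holds 250 bases before and 50 bases after each start. That window begins 201 bases past the summit and takes in 88 of its 519 bases, so the bases under the summit are not printed here. The 250 bases before the start, chr16:70313699-70313948, are shown because they are where the peak meets the promoter. Capitals mark the 88 bases inside the listed peak.

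Gbe1 upstream: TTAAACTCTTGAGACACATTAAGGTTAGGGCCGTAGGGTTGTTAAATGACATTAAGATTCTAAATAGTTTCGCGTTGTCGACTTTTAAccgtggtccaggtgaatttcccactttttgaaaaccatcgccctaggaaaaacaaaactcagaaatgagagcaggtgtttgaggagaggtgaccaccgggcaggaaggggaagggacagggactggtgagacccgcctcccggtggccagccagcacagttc

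The peak ended 163 bp before the start, and the 162 bases between it and the start had a GC content of 56.2%, against 35.2% for the 88 bases inside the peak. All 88 belonged to the peak as called in the first library. The interval of the second library ended 264 bp before the start and did not reach the printed bases.

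The antioxidant response element core TGACNNNGC was searched on both strands of the 300-base window. It had 0 matches in the window of Gbe1, whereas 12.4% of the 32851 windows in the table held at least 1. Among the 34 windows that overlapped a Keap1-null-only peak, 15 held it (44.1%). The related form TGAGNNNGC, added after the first search, had 1 match in the Gbe1 window, TGAGTGGGC. That match began 22 bases after the start and 185 bp beyond the end of the peak, outside the enriched interval. TGAGNNNGC was held by 17.6% of all windows and by 41.2% of the 34 that overlapped a peak. A broader pattern, TGANNNNGC, includes both forms; it had the same single match at Gbe1 and was held by 41.3% of all windows and 82.4% of the 34. TGACTCA, the AP-1 type element, had 0 matches at Gbe1 and was held by 5.20% of all windows and 20.6% of the 34. These searches say only which letters the window holds, and the bases under the summit were not searched.

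In the deposited values the Gbe1 peak was strong among Keap1-null-only peaks in both Keap1-null ChIP libraries. Each peak carries the −log10 p of its enrichment in each library, which rises with depth, and an irreproducible discovery rate (IDR), which is low for a peak that is both strong and alike in rank in the 2 libraries. The −log10 p at Gbe1 was 51.6 in the first library and 25.6 in the second, and the IDR was 0.000172. Over the 363 Keap1-null-only peaks the medians were 16.9 and 11.7, and the median IDR was 0.00996. Both libraries thus placed the site well above the middle of the Keap1-null-only list. The 106 Keap1-null peaks that overlapped an Nrf2-null peak had medians of 19.4 and 21.4. The value at Gbe1 in the second library was thus only a little above the middle of those shared peaks. The difference between the libraries at Gbe1 was 26.0 on the −log10 scale. The median difference was 5.75 over the 363 Keap1-null-only peaks, most of them weaker, so the comparison is not made at like strength. The first library was the higher one for 296 of the 363 peaks.

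Ordered by IDR, the Gbe1 peak stood at rank 25 of 363. It stood at rank 18 by the first library alone, at rank 34 by the second and at rank 31 by the smaller of the 2 values. Its summits in the individual libraries were 31 bp apart, at 466 and 435 bp before the start. The median separation was 32 bp over Keap1-null-only peaks and 8.5 bp over Keap1-null peaks that overlapped an Nrf2-null peak. Every listed peak has an interval in both libraries, so having 1 in each is no particular trait of the Gbe1 site. The interval called was 519 bp wide in the first library and 342 bp in the second. The joined peak was 519 bp wide against a median of 428 bp, which put it at rank 88 by width.

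**Figure D1:**
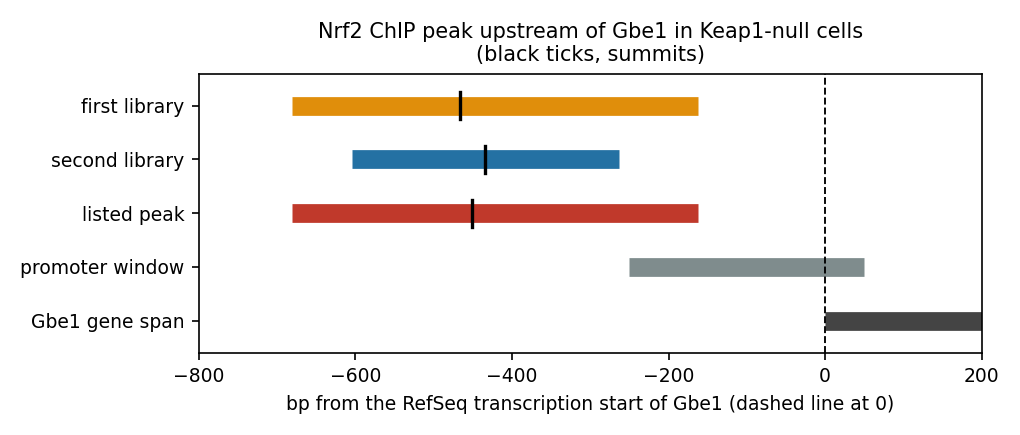
Intervals and summits of the Gbe1 peak in each Keap1-null ChIP library and in the deposited list, drawn against bp from the RefSeq transcription start, with the 300-base promoter window and the start of the gene span. The summits lie 466, 435 and 451 bp before the start, and the second library's interval stops short of the promoter window.

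**Figure D2:**
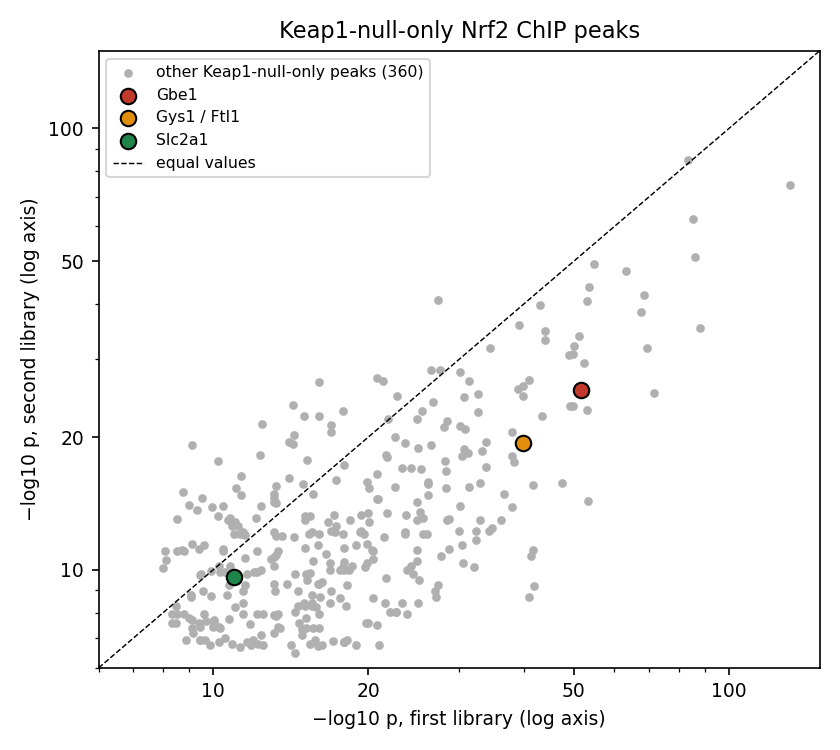
The −log10 p of each of the 363 Keap1-null-only peaks in the first library (horizontal, log axis) and the second (vertical, log axis), with the sites at Gbe1, Gys1 and Slc2a1 in colour and a dashed line of equal values. Gbe1, at 51.6 and 25.6, lies among the high values of both libraries, below the line as do 296 of the peaks, and Slc2a1 lies near the weak end.

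The Gbe1 site was among the strongest at a transcription start. Of the 356 such peaks on the chromosomes in the promoter table, 45 had a summit within 1 kb of a transcription start, and Gbe1 was the fifth of these 45 by IDR. The 4 ahead of it lay at Txnrd1, Srxn1, Txn1 and Nqo1, genes of the thioredoxin system, of peroxiredoxin repair and of quinone reduction. The fifth place depends on the 1 kb limit, since the peaks at ranks 1 and 20 had summits 1240 and 1012 bp from a start. The 7 Keap1-null-only peaks on chromosome 18, among them the one at rank 22, were not placed in this way. Of 17274 protein-coding genes in the promoter table, 0.232% had such a summit within 1 kb of a start. For the 3 peaks ranked just above the Gbe1 peak the nearest protein-coding genes were Diaph1, Rgma and Zdhhc18. For the 3 just below they were Jcad, Myc and Olfm4. Of these 6, those at Diaph1, Zdhhc18 and Jcad were inside the gene, and those at Rgma, Myc and Olfm4 were 99.4, 297 and 83.0 kb away. Starts of other genes in the promoter table lay nearer to the peaks at Rgma and Olfm4, at 34.3 and 14.1 kb.

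Beside the closest peaks of 6 well-known Nrf2 target genes, the Gbe1 peak fell in the middle of the range. Hmox1 and Txnrd1 each had 2 Keap1-null-only summits in the 50 kb window. Only the closest is ranked here, and it need not be the strongest. Txnrd1, Srxn1 and Nqo1 had their closest peaks at ranks 2, 3 and 11. The closest peaks to Gclc and Gclm, which encode the enzyme that starts glutathione synthesis, were at ranks 54 and 362, and that to Hmox1, encoding heme oxygenase, was at rank 135. The −log10 p at Gclc was 31.2 in the first library and 18.4 in the second, both lower than the values at Gbe1. At Nqo1 it was 67.5 and 38.3, both higher than at Gbe1. Since Gbe1 was chosen for its peak, no test was made of this order.

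The Gbe1 site was isolated. It was the only Keap1-null-only summit in a window that took in the 256 kb gene and 50 kb on each side. The next Keap1-null-only summits on chromosome 16 were 10.8 Mb to the left and 21.4 Mb to the right, and among the 18 on that chromosome it ranked second by IDR. The nearest protein-coding gene on the left was Speer2, 450 kb from the summit, and the nearest on the right of Gbe1 was Robo1, which began 1.46 Mb past the end of Gbe1. The closest gene of any kind on the left was the long noncoding RNA gene Gm36766, 74.8 kb away. Gbe1 was thus the nearest protein-coding gene by a wide margin, although nearness does not show which gene a site acts on. In the Nrf2-null list chromosome 16 carried 5 peaks, and the one closest to Gbe1 was 12922 kb away.

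Of the 9 glycogen genes, 2 held a Keap1-null-only site, Gbe1 and Gys1. Among all protein-coding genes the same rule gave a site for 3.31% with this window, or 4.84% of the 703 genes at least as long as Gbe1. The members were chosen with the Gbe1 peak known, so nothing is read from the count. The median distance from the gene span to the nearest Keap1-null-only summit was 963 kb for the 9 genes and 2065 kb for all protein-coding genes. The 9 include Gbe1, chosen for the position of its peak, so nothing is read from this difference either. Over the 7 members without a site the median was 1274 kb. None of the 9 held an Nrf2-null site, where 0.693% of protein-coding genes did. With so low a share in the background, 0 of 9 is no contrast between the genotypes. The read depth of the libraries is unknown, and a gene without a listed peak may still bind Nrf2 below the limit of the list.

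**Figure D3:**
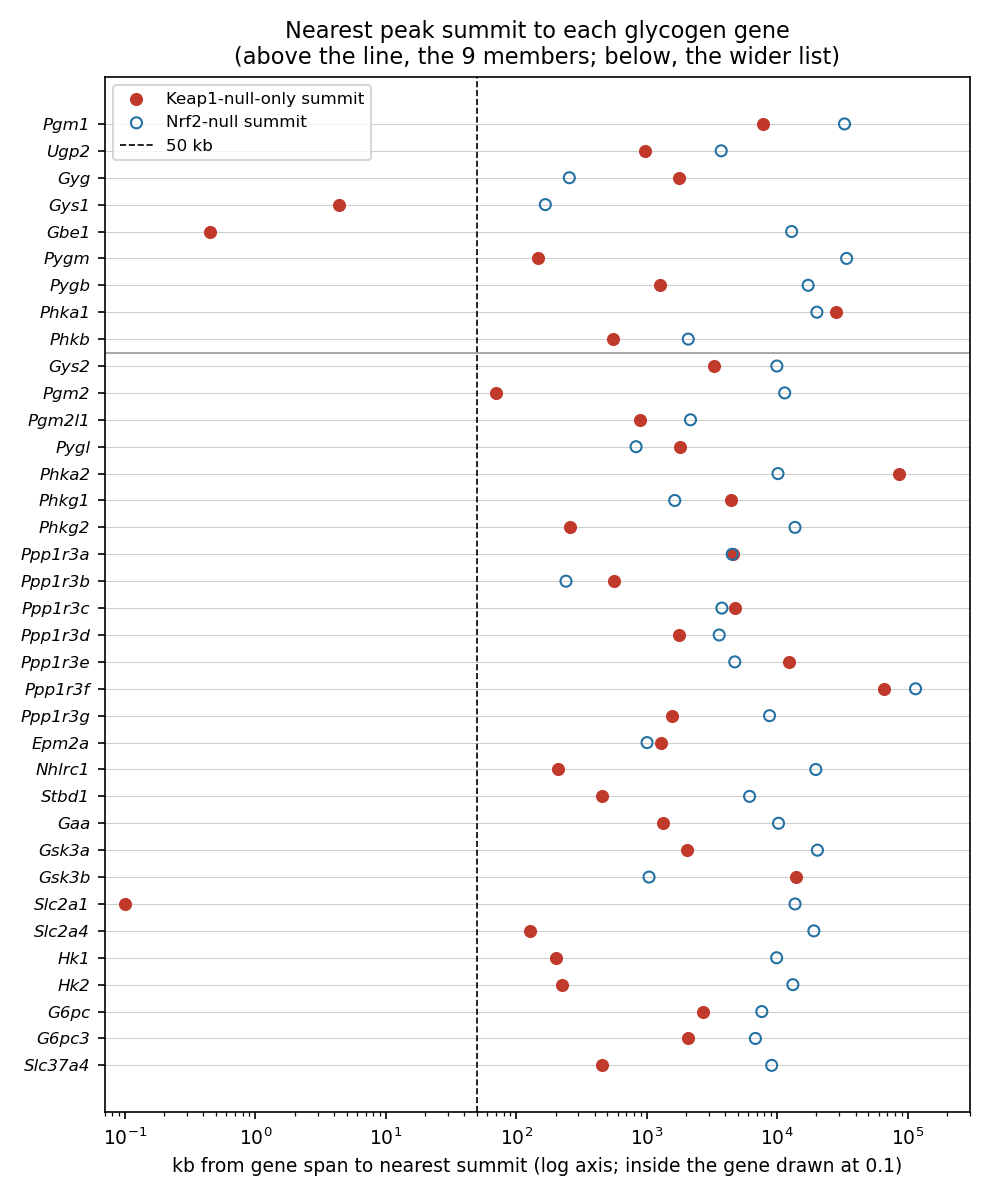
Distance in kb (log axis) from each gene span to its nearest Keap1-null-only summit (filled) and Nrf2-null summit (open), for the 9 members above the grey line and the 27 wider genes below it; the dashed line is the 50 kb limit. Gbe1, Gys1 and Slc2a1 are the genes with a filled point left of the limit, and no open point lies left of it.

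Genes that supply the glucose donor held no site. With a share of 3.31% among all protein-coding genes, nothing is read from this for so few genes. Pgm1 encodes phosphoglucomutase, which moves the phosphate of glucose phosphate to the position used for glycogen; it is the gene on chromosome 4, since the mouse symbols Pgm1 and Pgm2 have been used for either gene. Its nearest Keap1-null-only summit was 7817 kb away and its nearest Nrf2-null summit 32875 kb. Ugp2, encoding the pyrophosphorylase that makes UDP-glucose, was 963 kb from a Keap1-null-only and 3729 kb from an Nrf2-null summit. Gyg, encoding the glycogenin primer, was 1781 kb and 255 kb from them, so here the Nrf2-null peak was the closer.

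Gys1, encoding the muscle form of glycogen synthase, held a site by the 50 kb rule, but other genes lay closer to it. The peak, at chr7:45460743-45461212, had −log10 p of 39.8 and 19.4, an IDR of 0.000622 and rank 43. Its summit was 4.37 kb past the 3′ end of Gys1 and 26.1 kb from the Gys1 transcription start. Ftl1, encoding the ferritin light chain, is transcribed from the minus strand, and its start was 1.10 kb from the summit, with the peak upstream of it. Bax, encoding a protein that drives cell death, is also on the minus strand and had its 3′ end 709 bp from the summit and its start 5.91 kb away. The transcription start nearest to this summit was therefore that of Ftl1, and the spans of both Bax and Ftl1 were closer to it than that of Gys1. The nearest Nrf2-null summit to Gys1 was 167 kb away.

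Genes of glycogen breakdown among the 9 held no site. Only 3.31% of all protein-coding genes did, so no contrast with the genes of synthesis is read from this. Pygm, encoding muscle glycogen phosphorylase, came closest, 148 kb from a Keap1-null-only summit, outside the limit. Pygb, encoding the brain form, was 1274 kb away, its nearest summit being that of the Srxn1 peak. Phkb, the beta subunit of phosphorylase kinase, was 554 kb away. Phka1, the muscle alpha subunit, is on the X chromosome and was 28089 kb away. Across the 9 genes the distances around the 50 kb limit were thus well apart, with 4.37 kb for Gys1 just inside and 148 kb for Pygm just outside.

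**Figure D4:**
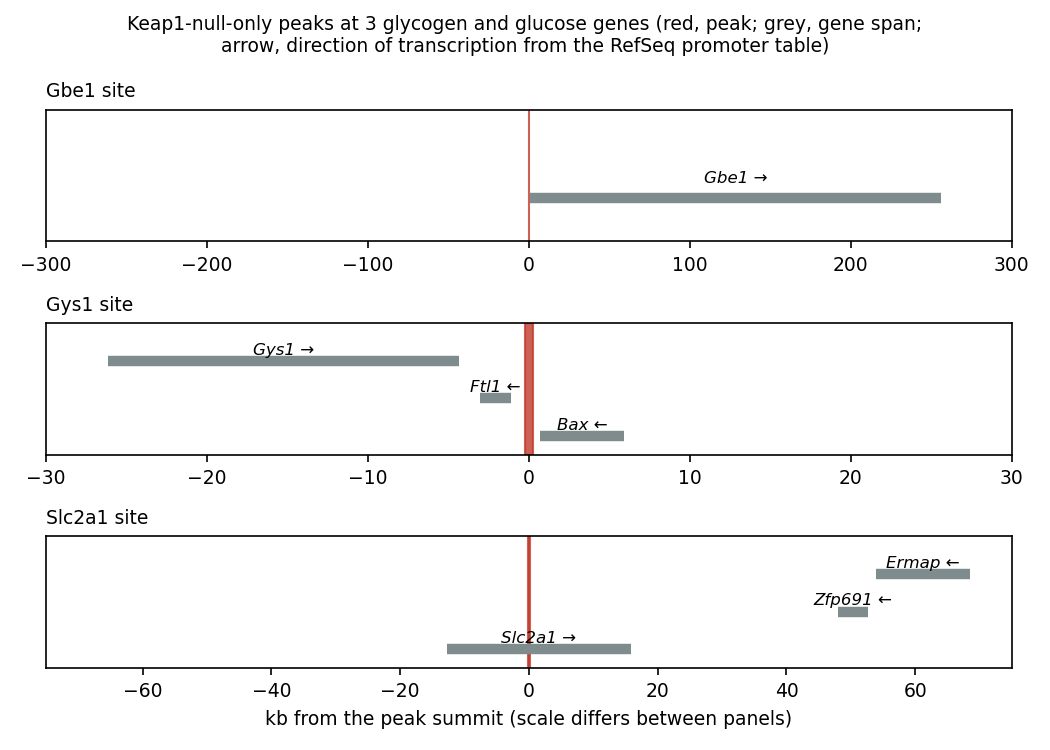
Spans (grey) of Gbe1 and, in the other panels, of up to 3 nearest protein-coding genes around the Keap1-null-only peaks (red) at the Gbe1, Gys1 and Slc2a1 sites, in kb from each summit, with arrows for the direction of transcription from the RefSeq promoter table; the scale differs between panels. The Gbe1 peak sits at the start of the gene, the Gys1 site lies between Ftl1 and Bax, and the Slc2a1 peak lies inside the gene.

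A wider list of 27 genes covered other steps of glycogen and glucose handling. Of these, 1 held a Keap1-null-only site, Slc2a1, beside 3.31% of all protein-coding genes, so the share was near the background. None of the 27 held an Nrf2-null site (beside 0.693%). The median distance to a Keap1-null-only summit was 1560 kb for the 27 genes.

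Slc2a1 encodes GLUT1, the glucose transporter that serves basal glucose uptake. Its peak at chr4:119121379-119121643 lay inside the gene, 12.8 kb downstream of the RefSeq transcription start of Slc2a1. The start nearest to the summit in the promoter table was that of Gm12867, at 10.7 kb. The −log10 p was 11.0 in the first library and 9.62 in the second, the IDR 0.0220 and the rank 263, so the site was in the weaker part of the list and below both medians. It was 265 bp wide. The span of Zfp691 was 48.0 kb from the same summit. The site was lost at an IDR of at most 0.01, whereas the sites at Gbe1 and Gys1 remained.

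The other 26 genes of the wider list were between 70.3 kb and 86077 kb from a Keap1-null-only summit, with a median of 1658 kb. The closest was Pgm2, another phosphoglucomutase, and the farthest Phka2, the liver alpha subunit of phosphorylase kinase. All 7 genes for the subunits that bring protein phosphatase 1 to glycogen (Ppp1r3a to Ppp1r3g) were without a site, at 560 kb or more. So were the remaining phosphorylase kinase subunits Phka2, Phkg1 and Phkg2, at 258 kb or more, and the liver phosphorylase Pygl, at 1795 kb. Of the 4 genes of glycogen quality and lysosomal turnover, Epm2a, Nhlrc1, Stbd1 and Gaa, none was closer than 211 kb. Gsk3a and Gsk3b, kinases that restrain glycogen synthase, were 2021 and 13876 kb away. Slc2a4, encoding the insulin-responsive transporter GLUT4, and the hexokinase genes Hk1 and Hk2 were 128, 202 and 223 kb from a summit. Since 3.31% of all protein-coding genes held a site, nothing is read from the lack of sites in these small groups.

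Across the promoter windows of the 9 members, all of which matched the table, TGACNNNGC was found in 0 genes. A gene was counted if any of its windows held a match, and some genes have several windows. The shares given beside these counts are per window, so the measures are not quite alike. TGAGNNNGC was found in 4 of the 9, Gbe1, Gyg, Pygb and Phkb, beside 17.6% of all windows, and of these genes Gbe1 alone had a peak that overlapped the window. In the wider list 23 of the 27 genes matched the table, the others being Gys2, Ppp1r3b, Ppp1r3e and Slc2a4. TGACNNNGC was found in 7 of the 23, namely Epm2a, G6pc, Hk1, Pgm2, Ppp1r3a, Ppp1r3d and Ppp1r3g, beside 12.4% of all windows. None of these 7 genes held a site, which is also what the background of 3.31% leads to for so few genes, so nothing is read from it. TGACTCA was found in 0 of the 9 and 0 of the 23, beside 5.20% of all windows.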

How the data were processed

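Per the submitters' processing notes, the tools were MACS2 2.2.7.1, SAMtools 1.6, BWA 0.7.17 and Trim Galore 0.6.10, with mm10 as build; no source used here gives their settings, the use of input or an IDR version. The deposited lists follow the IDR layout: an IDR score up to 1000 and −log10 values of p per library and of the IDR, all the authors' own, used only to describe, rank and filter. The library columns do not name a bench. Depth is not known.

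Computed here were overlaps (1 bp), distances from summits to RefSeq gene spans and starts, ranks (by IDR, ties by the smaller −log10 p) and motif matches, with Python 3.11.15, pandas 2.3.3 and numpy 2.4.6. The window and motif code was tested on simulated data. Coordinates are 1-based. Named genes are the 9 members, genes of the wider list with a summit in the window, the flanking genes and 3 rank neighbours on either side of the Gbe1 peak, and 6 reference Nrf2 targets; other genes of the wider list, and those of other observations, were named after their values were seen. The members and lists were chosen with earlier results of these data known. No test was made. 1 gene set out for the wider list is not reported here, so counts over that list are of the other 27. Alternatives covered rank order, peak sharing, windows, IDR limit, gene assignment and motif.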

Additional observations from a re-analysis of the deposited data

How the results depend on the processing

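The rank of the Gbe1 peak, 25, lay between 18 and 36 under 6 alternatives: 31 by the smaller −log10 p, 18 and 34 by the libraries alone, 25 under both other rules for sharing, and 36 among all Keap1-null peaks. The count of 2 members with a Keap1-null-only site was 2 at 10, 25 and 100 kb, at an IDR of at most 0.01, for any base of the peak and within 50 kb of a transcription start, a measure added after seeing the data. It was 3 at 200 kb, with Pygm. It became 1 with the nearest protein-coding gene alone, since Bax and Ftl1 lie closer than Gys1. The members with an Nrf2-null site, 0, became 1 at 200 kb, which was Gys1. The wider list's count of 1, Slc2a1, became 2 at 100 kb, with Pgm2, 3 at 200 kb, with Slc2a4 as well, and 0 at an IDR of at most 0.01. Its count for Nrf2-null peaks was 0 at every window. The motif count at Gbe1, 0, became 1 with TGANNNNGC and 1 with TGAGNNNGC, the latter added after seeing the data. No paired analysis was possible because a peak list gives no value that can be tied to a bench. Replicates could not be left out either, apart from the ranks by a single library.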

Other observations

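Genes next to glycogen in sugar metabolism were looked up after the values at Gbe1 had been seen. Of 23 genes of UDP-sugar and galactose metabolism and of glycolysis, 0 held a Keap1-null-only site by the 50 kb rule. With a share of 3.31% among protein-coding genes, 0 of 23 is near the background, so nothing is read from it. The closest was Gapdh, a glycolytic dehydrogenase, at 188 kb. Ugdh, which turns UDP-glucose into the donor for glucuronidation, was 1215 kb from its nearest summit. The median over the 23 genes was 1040 kb.

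The Keap1-null-only summit closest to Pgm2, 70.3 kb away, lay inside Tbc1d1, which encodes a Rab GTPase-activating protein of glucose transporter traffic in muscle. That peak (chr5:64198470-64199020) had −log10 p of 32.4 (first library) and 11.7 (second), an IDR of 0.00435 and rank 117, and was 31.7 kb from a Tbc1d1 transcription start. By the first library alone it stood at rank 57, and by the second at rank 182. Tbc1d1 was in none of the lists and was picked after its values were seen.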
